A study of Mus musculus with 24 samples.

Results

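The reactive astrocyte genes described here are the 10 genes Gfap, Vim, Nes, Lcn2, Serpina3n, Cd44, Steap4, Emp1, Cd109 and Aspg, taken by symbol from a table of 36333 genes. All 10 were found, and all 10 passed the filter for testing together with 17267 genes in all. RNA of lesional and perilesional brain tissue from 24 male mice was sequenced at 5 dpi (days post injury), with 1 library per mouse. TBI was a controlled cortical impact (CCI) to the exposed cortex. The 4 TBI groups held 5 mice each and were given vehicle, either drug alone or both (PLX3397+Anakinra), and the sham group held 4 mice that had no craniotomy and were given vehicle. PLX3397, an inhibitor of the receptor CSF1R on which microglia depend, was mixed into food pellets at 290 mg/kg from 90 min after CCI. Anakinra, an antagonist of the interleukin-1 receptor IL1R1, was injected subcutaneously at 100 mg/kg at 5 min and again at 24, 48 and 72 h after CCI. By the labels all mice were male and 12 to 16 weeks old, whereas the methods give a narrower age range and both sexes for the study. The labels give the strain as C57BL6N, whereas the methods name C57BL/6JRj. As to tissue, cortex is named in the labels, but the dissected quadrant in the methods also took in striatum, dorsal hippocampus and thalamus. The animal numbers of the vehicle mice are the only ones with the letter B. If that letter marks a batch, batch and vehicle cannot be told apart.

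Astrocytes respond to injury by enlarging, by raising intermediate filament proteins and by releasing acute-phase and immune proteins, a state called reactive astrogliosis. Signals from microglia and infiltrating immune cells, among them interleukin-1, complement C1q, tumor necrosis factor and cytokines of the interleukin-6 family acting through STAT3, are known to drive or shape it. The study asked whether inhibition of CSF1R, blockade of IL1R1 or both changed the outcome of TBI. The 10 genes show how far this astrocyte response followed either intervention. Levels are TPM, a read abundance scaled by gene length and to the same total in each library, so that levels can be compared between genes. The methods add that the software calls this unit CPM, and the scaling by length was read from the low values, which within a library are not multiples of 1 step. Fold changes were estimated by limma on log2(TPM + 1), which understates the change of genes with few TPM. A gene was called when its Benjamini-Hochberg adjusted p over all genes tested was below 0.05. In bulk tissue, fewer cells of a type and less RNA per cell cannot be told apart. Several of the 10 genes are also made by other cells: vimentin, nestin, CD44, Emp1 and Cd109 by fibroblasts or vessels, and lipocalin-2 by neutrophils. Serpina3n lies in a cluster of closely related genes, and how reads shared between these genes were counted is not given in the sources used here.

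The 10 genes lie on 7 chromosomes. In the RefSeq annotation of GRCm38.p6, Vim (chr2:13574311-13582826), Lcn2 (chr2:32384637-32387739) and Cd44 (chr2:102811141-102901669) share chromosome 2 without being neighbours. Serpina3n (chr12:104406646-104414334) and Aspg (chr12:112106683-112127573) share chromosome 12. The other 5 are Nes (chr3:87971093-87980451), Steap4 (chr5:7960472-7982213), Emp1 (chr6:135362550-135383173), Cd109 (chr9:78615546-78716260) and Gfap (chr11:102887336-102897200). RefSeq windows from 250 bases before to 50 bases after an annotated start were matched for 9 of the 10 genes, in 10 windows because Emp1 has a pair of them. The windows of Lcn2 (chr2:32387690-32387989, minus strand), Serpina3n (chr12:104406458-104406757, plus strand) and Cd44 (chr2:102901616-102901915, minus strand) are shown because these genes were lower under the combined treatment. The windows of Gfap (chr11:102897151-102897450, minus strand) and Emp1 (chr6:135362681-135362980, plus strand) are shown as examples of windows with matches to the searched motifs, from genes not called in any drug group against vehicle. Capitals mark matches on either strand to the STAT motif TTCNNNGAA, the AP-1 motif TGANTCA or the kappaB consensus, and in Emp1 an AP-1 match and a STAT match overlap.
Lcn2: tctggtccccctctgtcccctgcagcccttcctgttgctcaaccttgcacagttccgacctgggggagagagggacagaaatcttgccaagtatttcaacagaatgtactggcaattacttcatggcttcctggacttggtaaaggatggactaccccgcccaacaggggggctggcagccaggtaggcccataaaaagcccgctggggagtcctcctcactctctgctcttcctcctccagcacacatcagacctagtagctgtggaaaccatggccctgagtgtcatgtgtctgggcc
Serpina3n: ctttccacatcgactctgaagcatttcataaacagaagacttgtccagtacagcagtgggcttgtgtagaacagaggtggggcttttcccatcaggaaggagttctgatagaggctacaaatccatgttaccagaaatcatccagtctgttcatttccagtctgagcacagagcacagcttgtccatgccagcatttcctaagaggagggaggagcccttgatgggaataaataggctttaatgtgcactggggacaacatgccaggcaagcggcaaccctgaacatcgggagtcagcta
Cd44: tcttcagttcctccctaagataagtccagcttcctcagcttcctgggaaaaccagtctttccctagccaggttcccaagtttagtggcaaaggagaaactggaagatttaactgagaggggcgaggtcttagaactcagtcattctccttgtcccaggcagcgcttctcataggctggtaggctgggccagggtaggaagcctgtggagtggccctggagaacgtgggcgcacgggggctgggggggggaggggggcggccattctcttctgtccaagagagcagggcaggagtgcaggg
Gfap: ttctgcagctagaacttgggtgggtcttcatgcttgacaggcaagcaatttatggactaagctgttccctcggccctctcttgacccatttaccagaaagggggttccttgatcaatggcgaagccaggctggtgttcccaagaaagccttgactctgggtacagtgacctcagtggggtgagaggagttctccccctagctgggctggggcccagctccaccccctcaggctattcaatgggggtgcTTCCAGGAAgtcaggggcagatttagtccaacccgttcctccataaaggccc
Emp1: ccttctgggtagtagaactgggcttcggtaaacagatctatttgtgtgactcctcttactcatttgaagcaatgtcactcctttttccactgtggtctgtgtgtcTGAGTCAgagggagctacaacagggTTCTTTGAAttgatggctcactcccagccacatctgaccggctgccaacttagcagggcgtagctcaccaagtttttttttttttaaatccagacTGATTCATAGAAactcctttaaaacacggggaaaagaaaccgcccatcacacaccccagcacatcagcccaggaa

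No letters in the Lcn2, Serpina3n or Cd44 window matched any of these motifs. The STAT motif matched in 3 of the 10 windows (of Gfap, Steap4 and Emp1), while 8.3% of the 32851 RefSeq windows of the same length held it. The AP-1 motif matched in 1 of the 10 windows (of Emp1), against 7.81% of all windows. The kappaB consensus matched in 2 of the 10 (of Vim and Steap4), against 8.46% of all windows. A match describes the letters of the window and not the binding of a factor.

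All 10 genes were higher after TBI than in sham mice. Sham mice had no craniotomy, so the effects of craniotomy and impact cannot be told apart in any comparison with sham. In vehicle-treated TBI mice 10 of 10 were called higher than in sham mice, where 26.6% of all genes tested were called higher, and their median log2 fold change was 3.11 against -0.01 over all genes. None of the 10 overlapped between the groups, whereas 21.7% of all genes were higher without overlap. Against the same sham mice, 10 of 10 were also higher with PLX3397 (22.7% of all genes), with Anakinra (25.1%) and with PLX3397+Anakinra (20.7%). The ratio of group means in vehicle-treated mice over sham mice ran from 3.07 for Nes to 47.9 for Lcn2. The plot of TPM by group shows the step from sham to TBI beside the smaller differences among the TBI groups.

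**Figure D1:**
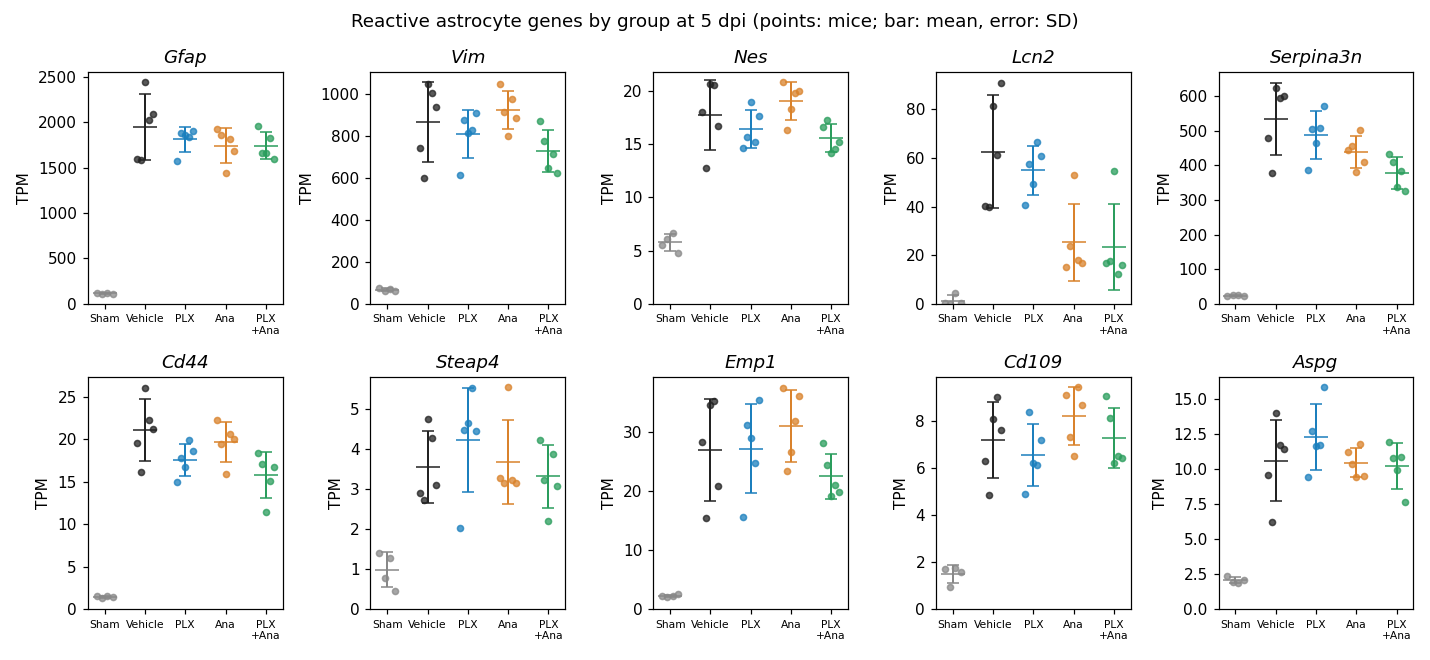
TPM of the 10 genes in 4 sham mice and 5 mice of each TBI group at 5 dpi, with a separate linear axis from 0 for each gene (points: mice, horizontal bar: mean, error bar: SD; PLX and Ana stand for PLX3397 and Anakinra). Sham mice lie below all TBI mice for every gene, and among the TBI groups Lcn2 separates most, with 4 of 5 mice low in each group given Anakinra.

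Gfap encodes the intermediate filament protein by which astrocytes are usually stained. Its level was 106, 112, 119 and 122 TPM in sham mice and 1589, 1593, 2022, 2085 and 2437 TPM in vehicle-treated TBI mice. The lowest TBI value lay far above the highest sham value, and the ratio of means was 16.98 (log2 fold change 4.06 ± 0.10, SE; adjusted p = 3.118e-19). Among the 17267 genes tested, Gfap moved from rank 1773 by level in sham mice to rank 31 in vehicle-treated mice. Its values were 1576, 1836, 1855, 1882 and 1903 TPM with PLX3397, 1437, 1684, 1812, 1857 and 1925 TPM with Anakinra, and 1598, 1655, 1664, 1830 and 1955 TPM with PLX3397+Anakinra. Each drug group overlapped with the vehicle group, and the means were 1945 ± 360 TPM (SD, n = 5) with vehicle, 1810 ± 134 TPM with PLX3397, 1743 ± 192 TPM with Anakinra and 1741 ± 148 TPM with the combination. The log2 fold changes against vehicle were -0.09 (95% interval -0.29 to 0.11), -0.15 (-0.35 to 0.05) and -0.14 (-0.34 to 0.06). Of the rise of Gfap above sham, 92.6% was left with PLX3397, 88.9% with Anakinra and 88.8% with the combination.

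Vim encodes vimentin, an intermediate filament protein of reactive astrocytes and of mesenchymal cells. It was at 61.0 to 76.4 TPM in sham mice and at 598, 743, 936, 1002 and 1044 TPM in vehicle-treated mice (ratio of means 12.9). The drug groups overlapped with vehicle, at 615 to 910 TPM with PLX3397, 800 to 1043 TPM with Anakinra and 621 to 871 TPM with the combination. The combined group had the lowest mean, 726 ± 101 TPM (SD, n = 5), against 865 ± 188 TPM with vehicle, and its log2 fold change of -0.23 (95% interval -0.50 to 0.03) was not called. Nes encodes nestin, a filament protein of immature and reactive glia and of growing vessels, and its ratio of means over sham was the smallest of the 10 genes (3.07), while on the log2 scale Steap4 rose less (1.20 against 1.45 for Nes). It was at 4.81 to 6.64 TPM in sham mice and at 12.8, 16.7, 18.04, 20.6 and 20.6 TPM in vehicle-treated mice, and the means of the drug groups were 16.4 ± 1.82 TPM with PLX3397, 19.1 ± 1.75 TPM with Anakinra and 15.6 ± 1.32 TPM with the combination. Neither filament gene was called against vehicle in any drug group.

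Lcn2 encodes lipocalin-2, a secreted iron-siderophore binding protein of the acute phase. It was listed at 0, 0.167, 0.516 and 4.55 TPM in sham mice and at 39.96, 40.02, 61.0, 81.3 and 90.8 TPM in vehicle-treated mice. One sham mouse, J15, carried most of the sham mean of 1.31 TPM, and without it the log2 fold change of vehicle over sham moved from 5.09 to 5.64. With PLX3397 the values were 40.4, 49.4, 57.3, 60.8 and 66.4 TPM, all within the vehicle range. With Anakinra they were 15.3, 16.6, 17.9, 23.7 and 52.9 TPM, and with PLX3397+Anakinra 12.2, 16.0, 16.7, 17.4 and 54.8 TPM. In each of these groups 4 of 5 mice lay below all vehicle mice, and 1 mouse (J14 with Anakinra, J09 with the combination) lay within the vehicle range.

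The ratio of mean Lcn2 to vehicle was 0.876 with PLX3397, 0.404 with Anakinra and 0.374 with the combination. On the log2 scale the difference was -0.13 ± 0.41 (SE; adjusted p = 0.895) with PLX3397, -1.35 ± 0.41 (adjusted p = 0.149) with Anakinra and -1.52 ± 0.41 (adjusted p = 0.0105) with the combination. Only the combination was called, and not with a pseudocount of 0.1 TPM (adjusted p = 0.0858). That call does not show that it differed from Anakinra alone: the direct comparison gave -0.16 (95% interval -1.002 to 0.674; adjusted p = 0.837). Without J14 and J09, a choice made after seeing the data, the difference was -1.65 with Anakinra (adjusted p = 0.0832) and -1.87 with the combination (adjusted p = 4.464e-04). Of the rise of Lcn2 above sham, 87.4% was left with PLX3397, 39.1% with Anakinra and 36.1% with the combination. Neutrophil genes were read beside Lcn2 because neutrophils also make it. Only 3 of the 8 neutrophil genes listed passed the filter. Of these the protease gene Mmp8 was called lower than vehicle with PLX3397 (-0.52), Anakinra (-0.65) and the combination (-1.54). The other tested genes, S100a8 (0.73, 0.31 and 0.04 in the same order) and S100a9 (0.58, 0.10 and 0.23), pointed the other way and were not called. Ly6g stayed at or below 0.152 TPM in every mouse, and the summed level of the list ran from 6.85 to 39.3 TPM with vehicle, 14.03 to 50.2 TPM with PLX3397, 11.9 to 49.1 TPM with Anakinra and 10.5 to 27.1 TPM with the combination. The highest sum of the Anakinra group (49.1 TPM) and of the combined group (27.1 TPM) fell on the same mice J14 and J09. The part of neutrophils in the Lcn2 values was not tested.

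Serpina3n encodes a secreted inhibitor of serine proteases that astrocytes raise after injury. It was at 22.4, 23.7, 24.4 and 24.4 TPM in sham mice and at 378, 479, 595, 601 and 622 TPM in vehicle-treated mice. Its values were 387, 464, 505, 509 and 572 TPM with PLX3397, 382, 409, 445, 456 and 502 TPM with Anakinra, and 325, 337, 385, 411 and 432 TPM with PLX3397+Anakinra. With the combination 2 of 5 mice lay below all vehicle mice, and the other 3 lay between the lowest 2 vehicle mice. The mean of 378 ± 46.2 TPM (SD, n = 5) was 0.706 times the vehicle mean of 535 ± 104 TPM, and the log2 fold change of -0.48 ± 0.12 (SE) was called (adjusted p = 0.00418). PLX3397 alone gave -0.12 (95% interval -0.36 to 0.12) and Anakinra alone -0.27 (-0.51 to -0.03; adjusted p = 0.331). The combination left 69.3% of the rise of Serpina3n above sham.

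Cd44 encodes the hyaluronan receptor, a surface protein of reactive astrocytes and of most leukocytes. It was at 1.299 to 1.51 TPM in sham mice and at 16.1, 19.5, 21.3, 22.2 and 26.1 TPM in vehicle-treated mice. The values were 14.98, 16.7, 17.7, 18.6 and 19.9 TPM with PLX3397, 15.9, 19.4, 20.1, 20.7 and 22.2 TPM with Anakinra, and 11.4, 15.1, 16.7, 17.1 and 18.4 TPM with PLX3397+Anakinra. The combined group was lower than vehicle, with overlap of 3 mice, at a mean of 15.7 ± 2.71 TPM (SD, n = 5) against 21.04 ± 3.65 TPM. The log2 fold change was -0.40 ± 0.11 (SE; adjusted p = 0.0163) with the combination, -0.24 ± 0.11 (adjusted p = 0.216) with PLX3397 and -0.09 ± 0.11 (adjusted p = 0.799) with Anakinra. The call for Cd44 was lost when only the compared groups were in the model (adjusted p = 0.0642). Markers of monocytes and macrophages, cells that also carry CD44, were read beside it: their summed level over 10 genes was 1305 to 2603 TPM with vehicle, 748 to 1363 TPM with PLX3397, 1028 to 1765 TPM with Anakinra and 341 to 445 TPM with the combination. With Anakinra the sum averaged 1405 TPM against 2172 TPM with vehicle, while Cd44 was not called. Of the 9 markers tested, 6 had a log2 fold change below 0 with Anakinra and 3 above (median -0.20). Their part in the Cd44 difference was not tested.

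The remaining surface proteins and the enzyme Aspg rose with injury and were called in no drug comparison with vehicle. Emp1, a membrane protein of the PMP22 family, was at 2.10 to 2.49 TPM in sham mice and at 15.5, 20.9, 28.3, 34.7 and 35.3 TPM in vehicle-treated mice. Cd109, a membrane-anchored protein of the alpha2-macroglobulin family, rose from 0.948 to 1.75 TPM in sham mice to 4.86 to 9.01 TPM. Steap4, a metalloreductase, had the lowest mean of the 10 genes in every group, with 0.456 to 1.40 TPM in sham mice and 2.71 to 4.74 TPM with vehicle. By the median of the sham mice Lcn2 was lower (0.341 TPM, against 1.03 TPM for Steap4). Aspg, an asparaginase, was at 1.89 to 2.36 TPM in sham mice and at 6.23 to 14.02 TPM with vehicle. The means with PLX3397, Anakinra and the combination were 27.2, 31.1 and 22.5 TPM for Emp1, 6.55, 8.21 and 7.27 TPM for Cd109, 4.21, 3.66 and 3.31 TPM for Steap4, and 12.3, 10.5 and 10.2 TPM for Aspg. Against vehicle their log2 fold changes lay between -0.20 (Emp1, combination) and 0.24 (Emp1, Anakinra), and each of these intervals included 0.

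PLX3397 alone was compared with vehicle to see whether microglial loss lowered the 10 genes. None was called lower, while 6.66% of all genes tested were lower, and none was called higher, while 3.23% were higher. Before adjustment, 1 of 10 (Cd44) was below 0.05 in limma, while 3936 of all 17267 genes tested were, in either direction. The median log2 fold change over the 10 genes was -0.09 against 0.01 over all genes, with 7 of 10 below 0. The microglial markers in the same mice did fall: 10 of 10, among them Tmem119, P2ry12 and Csf1r, were called lower, with a median log2 fold change of -1.32 and no overlap. Their summed level was 43.3% of the vehicle mean with PLX3397 and 38.8% with the combination, but 97.5% with Anakinra. The sum was 21.3% of the vehicle mean in sham mice, but single markers differed: against sham, 6 of 10 were higher, P2ry12 and Siglech were lower, and Tmem119 and Gpr34 were not called, both with PLX3397 and with the combination. The intervals of single genes leave room for a moderate change: for Gfap the difference from vehicle lay between -0.29 and 0.11, and for Lcn2 between -0.96 and 0.71.

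**Figure D2:**
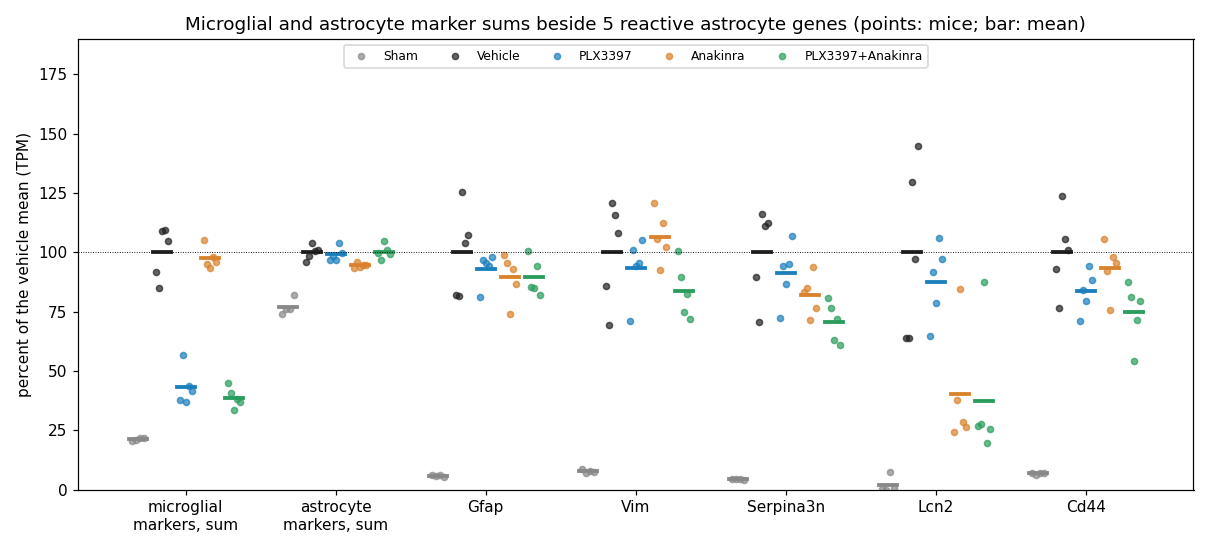
Summed TPM of 10 microglial and 14 astrocyte markers beside 5 reactive astrocyte genes, each mouse as a percentage of the vehicle mean (points: mice, bar: group mean, dotted line: 100%). With PLX3397 the microglial sum averages 43.3% of vehicle while Gfap averages 93.1%, and with Anakinra the microglial sum averages 97.5% while Lcn2 averages 40.4%.

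Anakinra alone was compared with vehicle to see whether IL-1 blockade lowered the 10 genes. None was called lower, while 0.0463% of all genes tested were lower, and none was called higher, while 0.0695% were higher. Before adjustment, Lcn2 and Serpina3n, 2 of 10 and both lower, were below 0.05 in limma, while 2148 of all 17267 genes tested were, in either direction. The study's limits for a DEG (differentially expressed gene) were an unadjusted p below 0.05, a ratio of means above 2 and a difference above 4 TPM. Lcn2 was the only 1 of the 10 genes to pass them in the Anakinra group, and 0.0174% of all genes passed them as lower. No member was lower than vehicle without overlap in this group, against 1.42% of all genes. The other 8 genes had log2 fold changes between -0.15 (Gfap) and 0.24 (Emp1), and the median over the 10 genes was 0.03 against -0.02 over all genes.

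The combination was compared with vehicle in the same way, against the same 5 vehicle mice. Lcn2, Serpina3n and Cd44 were called lower, 3 of 10 genes, while 9.6% of all genes tested were lower. None was called higher, while 7.88% of all genes were. Lcn2 alone passed the DEG limits with the combination, against 1.55% of all genes as lower, and none of the 10 passed them with PLX3397, against 0.932%. None of the 10 was lower without overlap with the combination (6.62% of all genes) or with PLX3397 (4.91%). The median log2 fold change of the 10 genes was -0.18 with 9 of 10 below 0, against 0.01 over all genes. Without the vehicle mouse J17B the count rose to 5 by Vim and Nes. Without J18B or without J09 it was 2, and Cd44 was the gene lost.

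**Figure D3:**
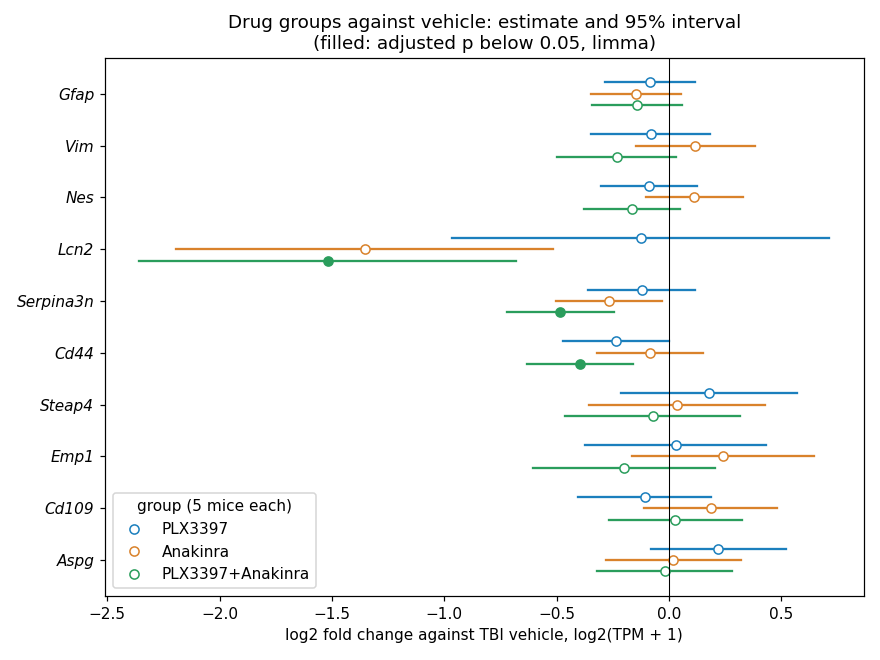
Log2 fold change of each gene against TBI vehicle on log2(TPM + 1), with its 95% interval from limma, for PLX3397, Anakinra and PLX3397+Anakinra (5 mice each). Filled points have an adjusted p below 0.05 and belong to Lcn2, Serpina3n and Cd44 under the combination; the widest intervals are those of Lcn2.

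The combination was also set against each drug alone. Against PLX3397 none of the 10 was called in either direction, while 0.151% of all genes were, and 2 of 10 were below 0.05 before adjustment. Lcn2 was lower by -1.39 (95% interval -2.23 to -0.55; adjusted p = 0.244) and Serpina3n by -0.36 (-0.60 to -0.13; adjusted p = 0.347) on the log2 scale. Without J14 and J09 Lcn2 was called in this comparison (adjusted p = 0.0459), and without J17B and J01 Serpina3n was (adjusted p = 0.0129). Against Anakinra none of the 10 was called either, while 12.8% of all genes were, and 4 of 10 were below 0.05 before adjustment. They were Vim (-0.35, adjusted p = 0.0724), Nes (-0.28, adjusted p = 0.0806), Cd44 (-0.31, adjusted p = 0.072) and Emp1 (-0.44, adjusted p = 0.14). This comparison was close to the limit: with only the compared groups in the model Vim, Nes and Emp1 were called, and without J17B Vim, Nes and Cd44 were called. The share of all genes below 0.05 before adjustment is not given here against either single drug. The unadjusted counts against PLX3397 and against Anakinra therefore stand without a background.

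Each drug was then read over 10 mice that received it and 10 TBI mice that did not. Over PLX3397, 1 of 10 genes was called lower, Cd44, at -0.27 ± 0.08 on the log2 scale (SE; adjusted p = 0.0159), while 11.1% of all genes tested were lower. Without the vehicle mouse J17B the count was 4, with Vim, Nes and Serpina3n added. Over Anakinra, 1 of 10 was called lower, Lcn2, at -1.37 ± 0.29 (SE; adjusted p = 0.0307), while 0.214% of all genes were lower. The size of this difference moved little when single mice were left out, between -1.55 and -1.29, but it was called in only 10 of the 24 sets with 1 mouse left out, with adjusted p from 0.0068 to 0.0714, and was lost in the others. The interaction of both drugs was called for none of the 10 genes and for 0% of all genes, and 0 of the 10 and 1395 of all genes were below 0.05 before adjustment. For Lcn2 the interaction was -0.04 with a 95% interval from -1.22 to 1.15, which is too wide to show that the drugs acted independently.

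The 10 genes did not vary as 1 block among the TBI mice. Over the 20 TBI libraries, which share treatment groups and dissection, Pearson's r between pairs of the genes on log2(TPM + 1) ran from -0.25 for Lcn2 with Cd109 to 0.87 for Nes with Emp1. Gfap followed Serpina3n (r = 0.78) and Vim (r = 0.73), whereas Lcn2 followed Serpina3n (r = 0.54) but not Nes or Emp1 (r = -0.01 and r = -8.443e-04). The genes nearest to each pattern over the same 20 libraries were Cybrd1 and Mlc1 for Gfap, S100a6 and Rhoc for Vim, Tacc3 and Ets1 for Nes, and Fabp5 and Pea15a for Serpina3n. They were Tmem123 and Bnip2 for Cd44, P4hb and Sparc for Emp1, Lgals1 and Anxa2 for Cd109, and Cercam and Ushbp1 for Aspg. Lrrc2 (r = 0.83) and Slpi (r = 0.82) were nearest to Lcn2, and Ptx3 (r = 0.79) and Pdpn (r = 0.75) to Steap4.

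Single mice also stood apart across several genes. The vehicle mouse J17B and the PLX3397 mouse J01 were below the mean of the 20 TBI mice in 9 of 10 genes, with median differences of -0.35 and -0.25 on the log2 scale. The vehicle mice J18B and J19B were above it in all 10. In the combined group J17 was below in 10 and J09 in 9 of 10 genes, with Lcn2 as the exception in J09. Fibroblast markers differed among the vehicle mice in part with this order. Their sum over 7 genes was 152 TPM in J17B and 201 TPM in J20B against 722 to 850 TPM in the other 3 vehicle mice, and 556 to 1767 TPM in the 15 mice given a drug. All 7 of these markers had a log2 fold change above 0 against vehicle with each drug and the combination, and 4 were called with PLX3397, none with Anakinra (6 below 0.05 before adjustment) and 4 with the combination. Over all genes tested, 3.23% were called higher with PLX3397, 0.0695% with Anakinra and 7.88% with the combination. Before adjustment 2148 of all 17267 genes were below 0.05 with Anakinra, in either direction. The part of the fibroblast markers in the values of Vim, Nes, Emp1 and Cd109 was not tested.

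**Figure D4:**
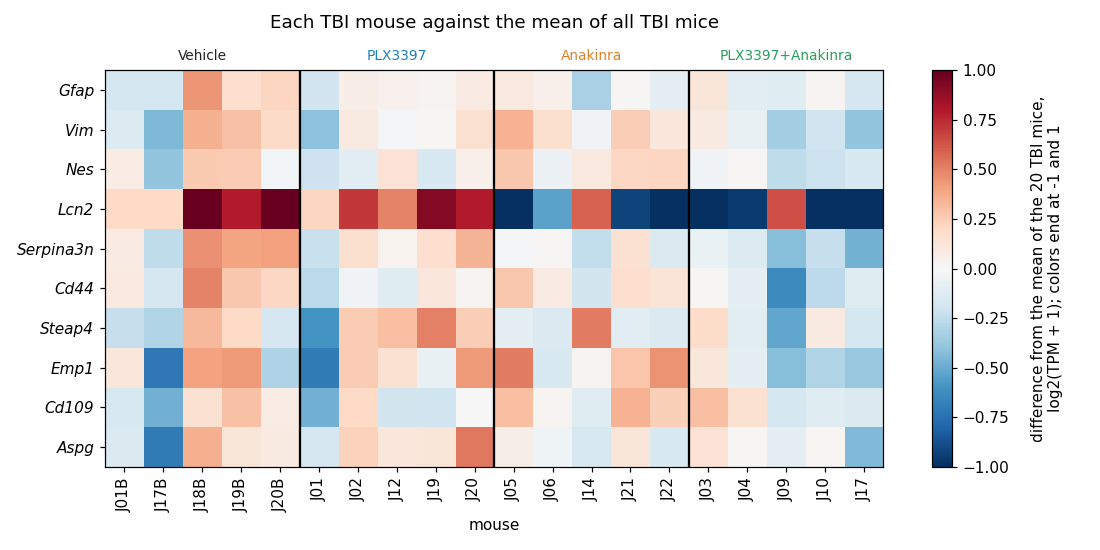
Difference of each of the 20 TBI mice (columns, by group) from their common mean for the 10 genes (rows), on log2(TPM + 1), with red above and blue below the mean and colors ending at -1 and 1. Lcn2 is blue in 4 of 5 mice of both groups given Anakinra and red in J14 and J09, while J17B and J01 are blue in 9 of 10 genes.

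General astrocyte markers were followed to see whether the astrocyte content of the samples moved. The summed level of 14 markers, among them Aldh1l1, Slc1a3, Aqp4 and Sox9, was 4289 to 4770 TPM in sham mice and 5568 to 6045 TPM with vehicle, 5610 to 6049 TPM with PLX3397, 5419 to 5579 TPM with Anakinra and 5627 to 6075 TPM with the combination. Against sham 12 of 14 were higher with vehicle (26.6% of all genes tested), with a median log2 fold change of 0.52. Aqp4, the water channel of astrocyte endfeet, rose most among them, from 51.5 to 214 TPM. Against vehicle, Aldoc was called higher with PLX3397 (0.16, adjusted p = 0.0416), none of the 14 was called with Anakinra (9 below 0.05 before adjustment), and with the combination Aldoc was higher (0.22) and Gja1 lower (-0.18). Before adjustment 2148 of all 17267 genes were below 0.05 with Anakinra, in either direction. After adjustment 0.0463% of all genes were lower and 0.0695% higher with Anakinra. With Anakinra 12 of 14 had a log2 fold change below 0 (median -0.12), and with PLX3397 11 of 14 did (median -0.08). The sum averaged 94.6% of the vehicle mean with Anakinra, 99.2% with PLX3397 and 100.4% with the combination. Of the 8 neuronal markers, 8 were lower with vehicle than in sham mice, while 4778 of all 17267 genes tested were called lower. Of the same markers, 4 with PLX3397, none with Anakinra (none before adjustment either) and 5 with the combination were higher than with vehicle. Over all genes tested, 3.23% were called higher with PLX3397, 0.0695% with Anakinra and 7.88% with the combination.

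Other genes of reactive astrocytes were read from 3 lists. The 6 further pan-reactive genes were all higher with vehicle than in sham mice, led by Timp1, an inhibitor of metalloproteinases (0.564 against 40.6 TPM), and the chemokine Cxcl10 (0.514 against 28.1 TPM). In this comparison 26.6% of all genes tested were called higher. Of the 6, none was called with PLX3397 (1 below 0.05 before adjustment) or with Anakinra. Before adjustment 2 of the 6 were below 0.05 with Anakinra, both with higher values than vehicle: Cxcl10 at 43.4 TPM without overlap (0.61, adjusted p = 0.11) and Timp1 at 65.6 TPM (0.79, adjusted p = 0.194). With the combination Cxcl10 was lower than with vehicle (-0.53, adjusted p = 0.0242) and lower than with Anakinra (-1.15, adjusted p = 1.231e-05). The 12 genes associated with the A1 state hold many genes of antigen presentation and the interferon response. Of the 11 tested, 9 were higher with vehicle than in sham mice, led by the proteasome subunit Psmb8 (2.45) and the glycosyltransferase Ggta1 (2.35). With PLX3397 5 of 11 were lower than with vehicle, with Anakinra none (4 below 0.05 before adjustment), and with the combination 7. Over all genes tested, 6.66% were lower with PLX3397, 0.0463% with Anakinra and 9.6% with the combination. Before adjustment 3936 of all 17267 genes were below 0.05 with PLX3397 and 2148 with Anakinra, in either direction. Srgn, a proteoglycan of blood cells, was lower by -0.71 with PLX3397 and by -1.02 with the combination, and Psmb8 by -0.66 and -0.87. The members of this list that fell, H2-T23, H2-D1, Ggta1, Psmb8 and Srgn with PLX3397 and also Iigp1 and Gbp2 with the combination, are expressed by microglia and other immune cells too. Microglial markers fell in the same groups, and their part was not tested.

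The 10 genes associated with the A2 state beyond those named above were mixed. Of the 9 tested, 7 were higher and 1, Ptgs2, was lower with vehicle than in sham mice, and the transglutaminase Tgm1 rose most (0.0908 against 36.2 TPM). Over all 17267 genes tested, 26.6% were called higher and 4778 genes lower in this comparison. With PLX3397 the LPS co-receptor Cd14, which is also a marker of myeloid cells, was lower (-0.74) and the cyclooxygenase Ptgs2 higher (0.39). With the combination Cd14 (-0.81) and Tgm1 (-0.61, adjusted p = 0.00582) were lower and Ptgs2 higher (0.43). None of the 9 was called with Anakinra, and none was below 0.05 before adjustment. Over all genes tested, 0.0463% were called lower and 0.0695% higher with Anakinra, and 2148 of 17267 were below 0.05 before adjustment.

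**Figure D5:**
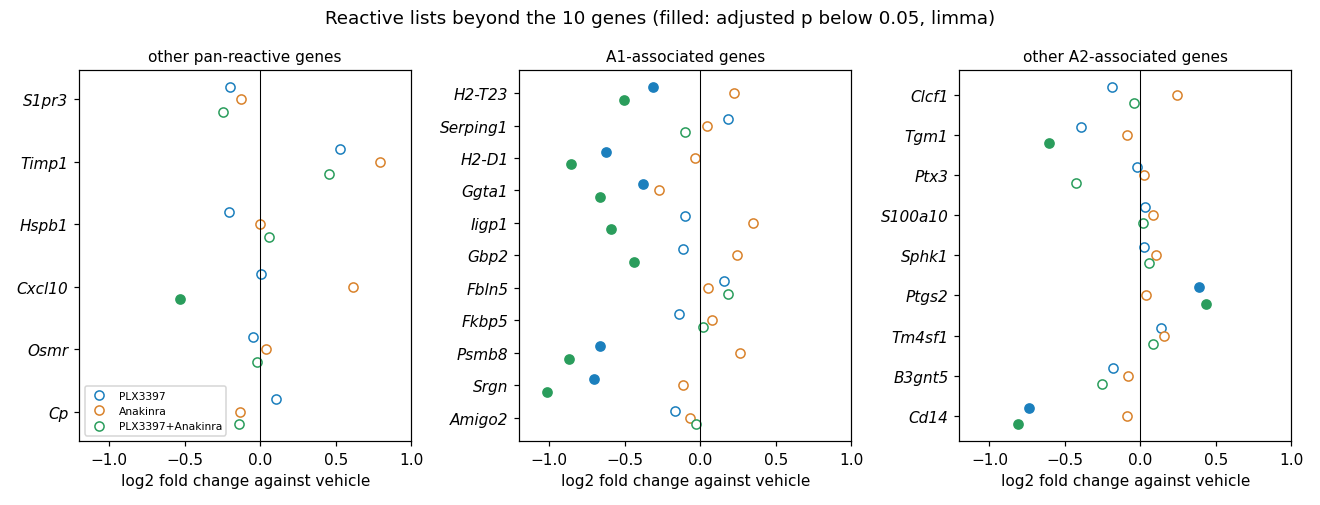
Log2 fold change against TBI vehicle of the tested genes of 3 further lists (6 pan-reactive, 11 A1-associated and 9 A2-associated genes) for the 3 drug groups, on log2(TPM + 1), with filled points at an adjusted p below 0.05. Of the A1-associated genes 5 are filled for PLX3397 and 7 for the combination, all below 0, and no gene is filled for Anakinra. Over all genes tested, 6.66% were called lower with PLX3397, 9.6% with the combination and 0.0463% with Anakinra.

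Genes of the signals that act on astrocytes were read beside the 10 genes. The complement genes C1qa, C1qb and C1qc, made by microglia and macrophages, rose by 3.46, 3.28 and 3.34 on the log2 scale with vehicle over sham, and with PLX3397 they were lower than with vehicle by -1.23, -1.10 and -1.15. C1qa averaged 1211 TPM with vehicle, 520 TPM with PLX3397, 1108 TPM with Anakinra and 413 TPM under both drugs. Il1a, which encodes interleukin-1 alpha, was low throughout and averaged 0.383 TPM in sham mice, 1.58 TPM with vehicle, 0.933 TPM in the PLX3397 mice and 0.674 TPM under both drugs, and both lower values were called. Il1b was not called between vehicle and sham (adjusted p = 0.0767) or between the drug groups and vehicle, at group means of 0.256 to 0.906 TPM. Osm, an interleukin-6 family cytokine, was lower with PLX3397 (-0.56) and with the combination (-0.82), and Tnf (-0.57), Cntf (-0.52) and the receptor antagonist gene Il1rn (-0.77) were called lower with the combination only, without a test of that difference from the single drugs. Osmr, Il1r1, Lif, Stat3 and the STAT3 target Socs3 were higher with vehicle than in sham mice and were not called against vehicle in any drug group, and Osmr is also 1 of the 6 further pan-reactive genes. Il6 did not pass the filter. Of the 14 signal genes tested, none was called with Anakinra (2 below 0.05 before adjustment), 5 were lower with PLX3397 and 8 were lower with the combination. Over all genes tested, 0.0463% were lower with Anakinra, 6.66% with PLX3397 and 9.6% with the combination. Before adjustment 2148 of all 17267 genes were below 0.05 with Anakinra, in either direction.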

How the data were processed

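Brain RNA of 24 mice was enriched for poly-A RNA and sequenced in paired-end mode on a NovaSeq, with 1 library per mouse. The authors trimmed and mapped the reads in CLC Genomics Workbench against mm10 (GRCm38 in the submitters' processing notes) and deposited TPM in 3 tables, of which the one with full precision was used. Of the other 2, one holds all 36333 genes rounded, and the other is filtered to 20181 genes with 8865 empty cells and also holds the authors' own test values, which were not used. Depth is unknown because TPM keep no read counts, so no counting interval is given and precision rests on the spread between mice. Each mouse was grouped by the treatment in its label, and p-values measure the spread between these mice.

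Genes whose mean reached 0.5 TPM were tested in limma 3.58.1 (R 4.3.3) on log2(TPM + 1), with 1 mean per group, all 24 libraries in the model and the variance modelled along expression. A DEG, after the study's own limits, needed an unadjusted p below 0.05, a ratio above 2 and a difference above 4 TPM. Other calls used Benjamini-Hochberg adjusted p below 0.05 over all 17267 genes. The code was tested on simulated data. Alternatives were another pseudocount, other filters, rescaling, only the compared groups, no trend, a block on shared animal numbers and leaving out mice. The 10 genes, the lists and the tests were chosen with earlier results of these data known. Besides the 10 genes, the rule for named genes took the 2 largest called changes of each reactive list, the signal genes, defining markers and the 2 nearest patterns per gene, and the other list genes named here were chosen after their values were seen. Promoter windows and gene positions are from RefSeq, GRCm38.p6.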

Additional observations from a re-analysis of the deposited data

Results flagged for a closer look

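Within each group, the highest and the lowest mouse were compared with the rest by Dixon's test for each of the 10 genes, and 6 values stood apart in 50 groups. Chance alone marks about 1 in 20 groups. Lcn2 was far above the other mice at 54.8 TPM in J09 of the PLX3397+Anakinra group (next 17.4 TPM), at 52.9 TPM in J14 of the Anakinra group (next 23.7 TPM) and at 4.55 TPM in the sham mouse J15 (next 0.516 TPM). Steap4 was also highest in J14, at 5.53 TPM (next 3.28 TPM). Gfap was lowest at 1576 TPM in J01 of the PLX3397 group (next 1836 TPM), and Emp1 was highest at 2.49 TPM in the sham mouse J16 (next 2.15 TPM). J14 and J09 held the highest summed level of neutrophil genes in their groups, and what set these mice apart was not tested.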

How the results depend on the processing

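All 10 genes were higher than sham in each TBI group under every alternative run except a filter at a mean of 5 TPM, which left 9 genes to test and called all 9. None was called with PLX3397 or Anakinra against vehicle or in the interaction under any alternative run. A block on the animal numbers that vehicle and PLX3397 mice share (3 pairs, letter B ignored) also gave 0, and nothing in the labels says that these numbers pair the mice. When each mouse was left out in turn, the count ran from 2 to 5 for PLX3397+Anakinra against vehicle (3 with all mice), from 0 to 3 against Anakinra (0), from 1 to 4 for PLX3397 over 10 mice (1) and from 0 to 2 for Anakinra over 10 mice (1). The count against Anakinra was 3 with only the compared groups in the model. The count for Anakinra over 10 mice was 0 with a pseudocount of 0.1 TPM, 0 without the filter and 0 without the variance trend. With the pseudocount of 0.1 TPM, Lcn2 was not called with the combination (adjusted p = 0.0858). Leaving out J17B and J01 together, chosen after seeing the data, gave 5 for the combination against vehicle, 1 against PLX3397, 4 against Anakinra, 4 for PLX3397 over 10 mice and 2 for Anakinra over 10 mice. Leaving out J14 and J09 gave 1 against PLX3397. The causes were not tested. No called value of the 10 genes changed sign, and rescaling moved the median of all genes by less than 0.05 on the log2 scale. With 5 mice per group and unknown depth, small differences can be missed, and no limit of detection was estimated. Whether Vim and Nes were called for the combination changed with the mice or groups in the model.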
